A study of Mus musculus with 6 samples.

Results

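The tetraspanin superfamily was described in C2C12 cells, an established mouse myoblast line whose cells stop dividing and fuse into multinucleated myotubes. Its members were taken by symbol alone: 20 gene rows named Tspan with a number, plus Cd9, Cd37, Cd53, Cd63, Cd81, Cd82, Cd151, Upk1a, Upk1b, Prph2 and Rom1, which makes 31 of the 54525 gene rows counted. RNA-seq was performed on 3 cultures of wild type, untreated C2C12 myoblasts (day 0, D0) and 3 cultures of wild type, untreated C2C12 myotubes after 5 days of differentiation in medium with less serum (D5). All cultures belonged to this 1 line and no other genotype or treatment was used. Whether the cultures were grown separately or at different times is not given in the labels, so the p-values measure only the spread between these samples.

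Tetraspanins are small proteins that cross the membrane several times and gather partner proteins, among them integrins, immunoglobulin superfamily proteins and proteases, into membrane microdomains. Some members carry the protease ADAM10 to the cell surface, some mark the endosomes and vesicles that cells release, and others belong to specialised membranes of leukocytes, bladder epithelium and photoreceptors. CD9 and CD81 are known for their part in gamete fusion and in setting the extent of myoblast fusion.

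The D0 libraries held from 36555048 to 40895840 counts on genes and the D5 libraries from 25449759 to 25811300. Levels are given as CPM, counts per 1000000 after TMM scaling, or, between genes, as TPM, which also corrects for exonic length, always as mean ± SD over 3 libraries. Fold changes are D5 over D0 as fitted by edgeR, and its quasi-likelihood p-values were adjusted over the 16290 genes that passed the filter on low counts, with a threshold of 0.05. The labels of the groups matched their markers. The summed level of 5 myotube markers rose from between 26.3 and 33.5 CPM at D0 to between 9808 and 10484 CPM at D5, and 5 of 5 passed the test. The summed level of 5 markers of dividing cells went from between 1737 and 1768 CPM to between 52.2 and 62.2 CPM, and 5 of 5 were lower. The myoblast markers Myod1, Myf5 and Pax7 were lower in 3 of 3 cases, with summed levels from 339 to 356 CPM at D0 and from 154 to 160 CPM at D5. Beside these counts of markers, 42.2% of all genes tested were higher at D5 and 40.8% were lower. In these bulk samples, fewer cells of a type and less RNA per cell cannot be told apart.

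Of the 31 tetraspanins, 26 passed the filter, and of these 18 were higher at D5, 6 were lower and 2 did not pass the test (Cd63 and Tspan31). Among all genes tested 82.9% passed, 42.2% being higher and 40.8% lower, where 69.2% and 23.1% of the tested tetraspanins were higher and lower. With a change of at least 2-fold, 13 tetraspanins were higher and 3 were lower, where the shares over all genes were 19.3% and 16.0%. The filter passed 21 members in both groups, 3 only through their D5 libraries (Cd53, Tspan8 and Tspan11) and 2 only through their D0 libraries (Tspan18 and Tspan2). The filter itself favoured a difference in these 5, so their calls are not independent of it. The median log2 fold change of the 26 was 0.83 beside 0.0022 for all genes tested. The 3 D5 libraries lay above the 3 D0 libraries for 18 of the 26 tested members and below them for 6, where the shares over all genes were 42.2% and 41.1%, or 83.3% in either direction.

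These counts moved with the scaling. With library sizes set by the ERCC spike-ins, synthetic RNAs added to each sample, 7 tetraspanins were higher and 4 were lower. The SE grew with it, for Tspan12 from 0.042 to 0.52 and for Cd151 from 0.036 to 0.52. The log2 fold change of Tspan12 went from 1.59 to 1.03 and that of Cd151 from -0.48 to -1.03, and neither passed. A call lost with the spike-ins is thus not by itself a smaller change. The spike-ins took from 0.726% to 0.859% of counts at D0 and 1.20%, 0.720% and 2.09% in D5 replicates 1, 2 and 3. That scaling shifted the median log2 fold change of all genes to -0.58, and 67.4% of all calls were lower, where TMM gave 49.2%. Without any scaling, the smaller total counts of the D5 libraries stayed uncorrected. There the median of all genes was -0.68, and 76.6% of calls were lower. A change of scaling moves all genes of a library alike, so positions relative to that median stay nearly the same by construction. The 7 called higher also with the spike-ins were Cd53, Tspan7, Tspan8, Tspan11, Tspan13, Tspan32 and Tspan33, and the 4 called lower were Cd82, Tspan2, Tspan6 and Tspan18. The same filter was used there. Cd53, Tspan8, Tspan11, Tspan2 and Tspan18 had passed it only through the group where they were higher, so these calls are not independent of it either.

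**Figure D1:**
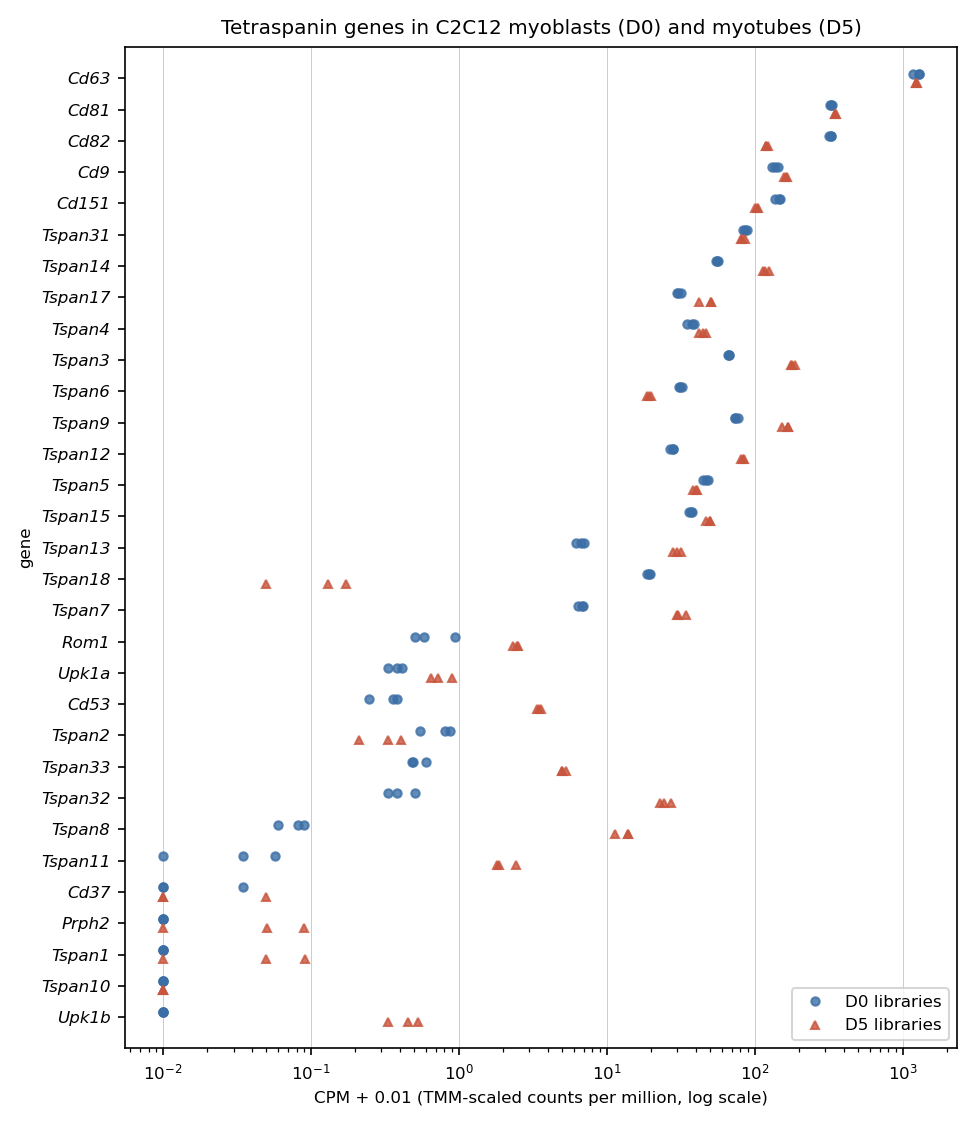
Level of each tetraspanin in every library, as CPM plus 0.01 on a log axis, with D0 libraries as circles and D5 libraries as triangles and genes ordered by their mean TPM at D0. Tspan8, Tspan11 and Tspan32 stand far to the right at D5, Tspan18 stands far to the left, and the circles and triangles of Cd63 overlap near 1249 and 1243 CPM.

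**Figure D2:**
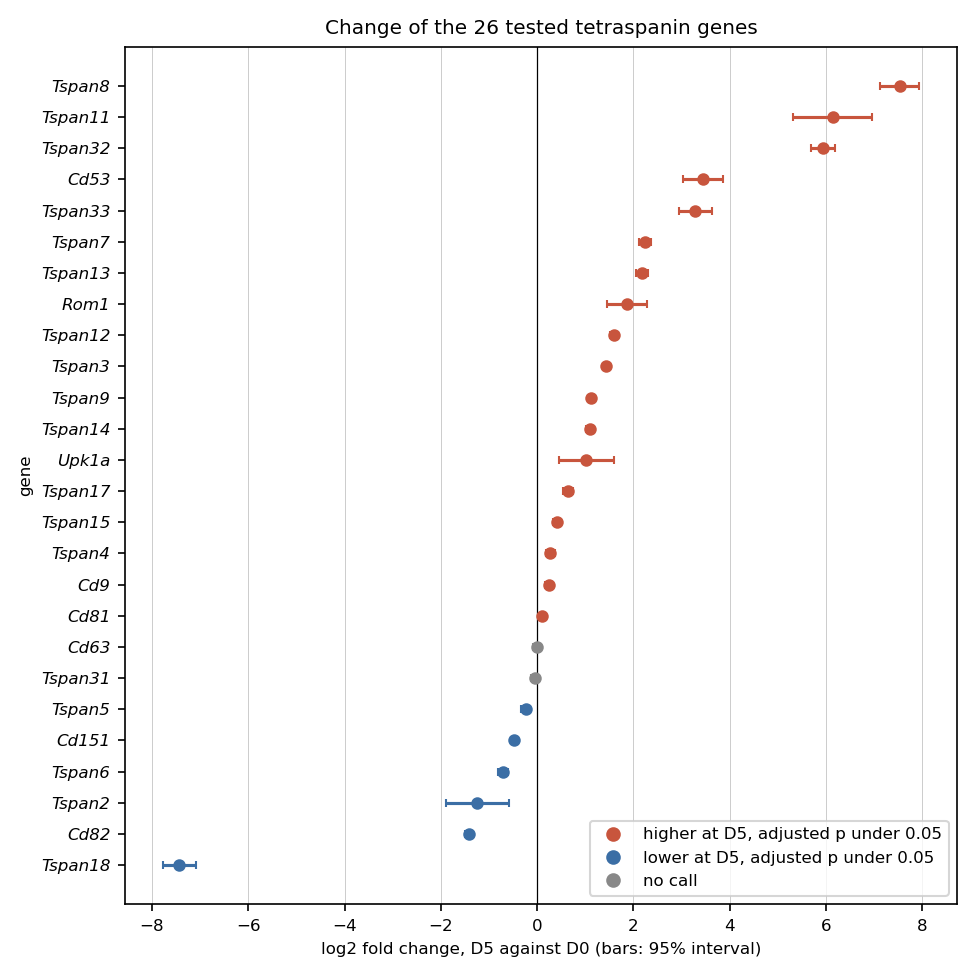
Log2 fold change, D5 over D0, of the 26 tested tetraspanins with its 95% interval from edgeR's fit. The values run from -7.43 for Tspan18 to 7.53 for Tspan8, both fitted values of genes with at most 4 counts per library in 1 group, and the intervals of Cd63 and Tspan31 cross 0.

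Promoters of 29 members were found by symbol among RefSeq promoters of GRCm38.p6, and Tspan18 and Upk1b had none. The 250 bases before the start site were searched on both strands for CAGCTG, a palindrome of the E-box kind that myogenic factors such as MYOD and myogenin bind. It occurred in 6 of the 29 members, or 20.7%, and in 14.7% of the 27025 genes with a promoter (13.0% of 32851 promoters). The 6 comprised 5 of the 18 members higher at D5 (27.8%), 0 of the 5 lower ones, 0 of the 2 without a call and 1 of the 4 that were not tested. Among the 5 higher ones, Cd9 and Cd81 changed only 1.18-fold and 1.08-fold, and their direction turned with the scaling. The 30 bases around each match are shown because they are the letters on which that count rests, 5′ to 3′ on the gene's strand with the match in capitals.
Tspan32: aggccagagcaaCAGCTGgtatagaaactg
Tspan7: tccttctgacttCAGCTGgaagtctgtgcc
Tspan33: ttttcccttaagCAGCTGcagcctgcaggc
Cd9: acatgcgcatagCAGCTGgccgagcgccgt
Cd81: gtccccaagaacCAGCTGcaccaagttcca
Tspan10: ctgataggagacCAGCTGagcctacaggcc
These windows lie at chr7:143004846-143004875 on the plus strand for Tspan32, chrX:10484902-10484931 plus for Tspan7 and chr6:29693969-29693998 plus for Tspan33. Those of Cd9, Cd81 and Tspan10 lie at chr6:125494768-125494797 on the minus strand, chr7:143052593-143052622 plus and chr11:120442399-120442428 plus. The match begins 25 bases before the RefSeq start site in Cd9, 145 in Cd81, 188 in Tspan32, 202 in Tspan7, 220 in Tspan10 and 233 in Tspan33. In the GENCODE annotation of GRCm38, Cd9 reaches up to 125494791 on the minus strand, so there its match lies inside the gene. The related CAGGTG, read as CACCTG on the other strand, occurred in 24.1% of members and 19.4% of genes. The GC box GGGCGG occurred in 51.7% of members and 35.4% of genes, and TATAAA only in Tspan12, or 3.45% of members, where the share of genes was 14.3%. A match is a run of letters in this window and says nothing of whether a factor binds there.

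The members that were at or near the detection limit in myoblasts were among those with the largest rises. Tspan8, a tetraspanin of epithelia and of released vesicles on chromosome 10 (GRCm38, 115816832 to 115849893), was counted 3, 3 and 2 times at D0 and 287, 341 and 348 times at D5. The groups did not overlap, and its level at D5 was 13.1 ± 1.44 CPM. The ratio of its summed, scaled counts was 196, with a 95% counting interval from 98.96 to 455, and edgeR's adjusted p was 1.8e-24. Tspan11 (chromosome 6, 127887589 to 127953977) had 0, 2 and 1 counts at D0 and 47, 60 and 45 at D5, a ratio of 81.3 with a counting interval from 27.3 to 399 (adjusted p = 2.4e-14, edgeR). Its fitted log2 fold change was 6.14, and without D0 replicate 2 it was 6.91. Against a floor of 3 counts per library, Tspan8 was at least 174-fold and Tspan11 at least 27.1-fold higher at D5. Such intervals and limits cover counting error only.

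Tspan32, a tetraspanin of blood cells (chromosome 7, 143005046 to 143019644), was counted 12, 21 and 15 times at D0 and 575, 675 and 607 times at D5. Its level rose 61.5-fold from 0.397 ± 0.0921 to 24.9 ± 2.29 CPM (log2 fold change 5.94, SE 0.13, adjusted p = 3.2e-27, edgeR). Cd53, a tetraspanin of leukocyte membranes, rose with it. Its counts were 14, 10 and 14 at D0 and 87, 89 and 84 at D5, or 0.319 ± 0.0721 and 3.48 ± 0.119 CPM, a 10.9-fold rise (adjusted p = 2.5e-15, edgeR). Cd37, the third member known from leukocytes, had at most 1 count in any library and was not tested. Over 6 leukocyte markers the summed level was 3.05 to 3.31 CPM at D0 and 2.13 to 3.12 CPM at D5. Ptprc, which encodes CD45 and marks all leukocytes, had at most 1 count, the macrophage gene Adgre1 had 0 counts in every library, and Cd68 was the only one tested, with a log2 fold change of -0.50. Itgam had 0 counts in each D0 library and 10, 13 and 5 at D5.

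The bladder and retinal members stayed low. Upk1b, a plaque protein of the bladder epithelium, had 0 counts in the 3 D0 libraries and 13, 11 and 8 at D5, which makes it at least 5.69-fold higher against a floor of 3 counts per library, and it did not pass the filter. Its relative Upk1a had 12, 17 and 15 counts at D0 and 18, 22 and 16 at D5, and its level went from 0.365 ± 0.0424 to 0.750 ± 0.128 CPM (log2 fold change 1.02, SE 0.29, adjusted p = 0.0022, edgeR). Each of the 5 urothelial markers had at most 3 counts in any library. Rom1, which with peripherin shapes the disc rims of photoreceptors, had 35, 24 and 20 counts at D0 and 58, 61 and 62 at D5, or 0.667 ± 0.234 and 2.42 ± 0.101 CPM, a 3.66-fold rise (adjusted p = 3.0e-09, edgeR). The calls of Rom1 and Upk1a were lost with spike-in scaling. The partner of Rom1, Prph2, which encodes peripherin, had at most 2 counts, and the summed level of 5 photoreceptor markers was 0.547 to 0.844 CPM at D0 and 0.811 to 0.884 CPM at D5, with Rcvrn at 0 counts. Tspan1 also had at most 2 counts, and Tspan10 had 0 in every library.

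Among members well above the detection limit in both groups, Tspan7, Tspan13, Tspan12, Tspan3, Tspan9 and Tspan14 rose at least 2-fold. Tspan7, an X-linked member known from neurons, was counted 257, 269 and 273 times at D0 and 765, 841 and 747 times at D5, or 6.67 ± 0.247 and 31.5 ± 2.25 CPM, a 4.72-fold rise (log2 fold change 2.24, SE 0.067, adjusted p = 1.6e-23, edgeR). Tspan13 was close to it, with 6.99, 6.70 and 6.15 CPM at D0 and 29.9, 31.7 and 28.1 CPM at D5, a 4.52-fold rise (adjusted p = 4.4e-23, edgeR). For neither gene did the groups overlap. Tspan12, which joins the receptor FZD4 in signaling by norrin, had 26.7, 27.9 and 27.8 CPM at D0 and 84.7, 83.5 and 80.6 CPM at D5, a 3.01-fold rise (log2 fold change 1.59, SE 0.042, adjusted p = 6.8e-25, edgeR). Endothelial cells are where that role is best known. The summed level of 4 endothelial markers went from between 3.31 and 3.59 CPM at D0 to between 0.517 and 0.884 CPM at D5. Of these 4, only Kdr and Tek were tested, and both were lower. Both passed the filter only through their D0 libraries, so their calls are not independent of it. Tspan3 had 65.6, 67.5 and 67.2 CPM at D0 and 188, 177 and 178 CPM at D5, a 2.71-fold rise (adjusted p = 1.2e-25, edgeR). Tspan9, known from platelets, had 73.4, 77.2 and 73.5 CPM at D0 and 154, 167 and 167 CPM at D5, a 2.18-fold rise (adjusted p = 4.2e-22, edgeR). With spike-in scaling the log2 fold changes of Tspan12, Tspan3, Tspan9 and Tspan14 stayed positive but did not pass the threshold.

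The 3 members that fell at least 2-fold were Tspan18, Cd82 and Tspan2. Tspan18, a tetraspanin of endothelium that acts on store-operated calcium entry (chromosome 2, 93201760 to 93334505), was counted 698, 812 and 789 times at D0 and 1, 4 and 3 times at D5. This corresponds to 19.2 ± 0.493 CPM in myoblasts and 0.107 ± 0.0622 CPM in myotubes, or 0.558% of the D0 level with a 95% counting interval from 0.241% to 1.10% (adjusted p = 2.8e-26, edgeR). Cd82, known as a suppressor of metastasis and as a surface protein of muscle progenitors, is the next protein-coding gene on that chromosome (93419111 to 93463140). It had 328, 317 and 327 CPM at D0 and 119, 123 and 119 CPM at D5, so that 37.2% of its level was left (log2 fold change -1.43, SE 0.033, adjusted p = 3.0e-26, edgeR). Tspan2, a member known from oligodendrocytes, had 20, 36 and 32 counts at D0 and 10, 5 and 8 at D5, and 0.728 ± 0.171 CPM became 0.307 ± 0.0983 CPM (log2 fold change -1.24, SE 0.33, adjusted p = 0.0012, edgeR). The groups of libraries of each of these genes did not overlap.

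Of the 5 most abundant members in myoblasts, Cd63, Cd81 and Cd9 changed little and Cd82 and Cd151 fell. Per length, Cd63 was the leading tetraspanin at both times, with 1173 ± 55.6 TPM at D0 and 1048 ± 17.8 TPM at D5. CD63 is the usual marker of late endosomes and released vesicles. Its 3 D0 libraries held 1286, 1294 and 1167 CPM and its D5 libraries 1239, 1254 and 1236 CPM, which overlap. The log2 fold change was -0.01 with a 95% interval from -0.08 to 0.06 (adjusted p = 0.87, edgeR). With total counts in place of TMM it was -0.09 and passed the test. Of the 50-base stretches of its transcripts, 11.1% also occur in other genes, chiefly the pseudogene Cd63-ps.

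Cd81 and Cd9, the pair known from cell fusion, had small rises. Cd81 was at 332, 322 and 326 CPM at D0 and at 350, 357 and 351 CPM at D5, a 1.08-fold difference (adjusted p = 0.0018, edgeR). Cd9 was at 143, 138 and 131 CPM at D0 and at 163, 159 and 164 CPM at D5, a 1.18-fold difference (adjusted p = 3.9e-07, edgeR). The groups did not overlap for either gene, but the directions turned with the scaling. Without scaling the log2 fold changes were -0.57 for Cd81 and -0.44 for Cd9, with the spike-ins they were -0.45 and -0.33, and with total counts Cd81 was at 0.03 without passing the test. Cd151, the partner of laminin-binding integrins, was lower at D5, with 148, 145 and 137 CPM at D0 and 103, 105 and 100 CPM at D5, or 71.6% of the D0 level (adjusted p = 2.8e-13, edgeR), a call that spike-in scaling did not keep.

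Ratios within a library do not depend on the scaling between libraries. The ratio of Cd82 to Cd81 in TPM was 0.950 ± 0.00961 at D0 and 0.327 ± 0.00285 at D5. The ratio of Cd151 to Cd9 went from 0.779 ± 0.00446 to 0.474 ± 0.0202. In neither ratio did any D5 library reach a D0 library. These ratios, and those given below between members and their partner genes, were chosen after the values were seen and carry no test.

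The 6 TspanC8 tetraspanins, Tspan5, Tspan10, Tspan14, Tspan15, Tspan17 and Tspan33, bind ADAM10, the protease that cuts Notch and other surface proteins, and carry it out of the endoplasmic reticulum. Of the 5 that were tested, 4 were higher and Tspan5 was lower, where 42.2% of all genes were higher and 40.8% lower. Tspan14 had 55.5, 56.3 and 54.9 CPM at D0 and 115, 124 and 117 CPM at D5, a 2.14-fold rise (log2 fold change 1.10, SE 0.038, adjusted p = 8.2e-22, edgeR). Tspan33, also known from red cell precursors, rose 9.75-fold from a low level, with 18, 25 and 19 counts at D0 and 125, 131 and 123 at D5 (adjusted p = 4.1e-17, edgeR). Tspan17 went from 30.5 ± 0.922 to 47.7 ± 4.94 CPM, a 1.56-fold rise, and Tspan15 from 36.9 ± 0.679 to 49.0 ± 1.62 CPM, a 1.33-fold rise (adjusted p = 5.5e-12 and 6.7e-10, edgeR). Tspan5 went from 46.6 ± 1.90 to 39.5 ± 1.24 CPM, or 84.8% of the D0 level (adjusted p = 2.2e-05, edgeR). Tspan15 turned to -0.27 without scaling and to -0.17 with the spike-ins, Tspan17 to -0.04 without scaling, and with the spike-ins Tspan14, Tspan17 and Tspan5 did not pass the threshold.

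Adam10 itself moved the other way. It had 155, 149 and 158 CPM at D0 and 96.4, 90.7 and 96.7 CPM at D5 (log2 fold change -0.70, SE 0.036, adjusted p = 2.4e-17, edgeR), and it was also lower with the spike-ins. The summed TspanC8 level was 174 ± 0.639 TPM at D0 and 267 ± 8.20 TPM at D5, while Adam10 was at 108 ± 3.81 and 59.8 ± 3.05 TPM. Within libraries, the TspanC8 sum over Adam10 was 1.62, 1.65 and 1.55 at D0 and 4.13, 4.85 and 4.43 at D5, a 2.78-fold difference in the means. Inside the TspanC8 sum, Tspan14 took 41.7% ± 0.696 at D0 and 52.2% ± 1.26 at D5, Tspan17 took 36.6% ± 0.649 and 33.5% ± 1.91, and Tspan5 took 12.5% ± 0.527 and 6.24% ± 0.459. Tspan33, in spite of its large fold change, made up 0.197% at D0 and 1.14% at D5. Of the 5 ADAM10 substrates listed, App and Notch3 were higher and Notch1, Notch2 and Cdh2 were lower, with log2 fold changes from -0.69 to 0.78. With the spike-ins only the call of Notch2 among these 5 was kept and Notch3 turned to -0.30.

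**Figure D3:**
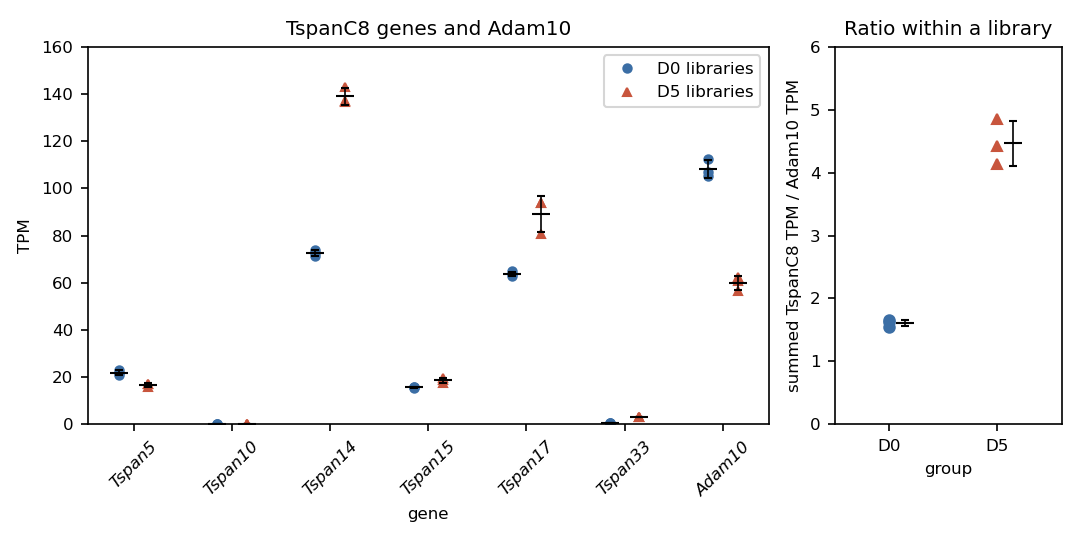
Left, TPM of the 6 TspanC8 genes and Adam10 in each D0 and D5 library with mean ± SD, and right, the summed TspanC8 TPM over the TPM of Adam10 within each library. Tspan14 lies near 72.5 TPM at D0 and 139 TPM at D5 while Adam10 goes from 108 to 59.8 TPM, and the ratio lies from 1.55 to 1.65 in D0 libraries and from 4.13 to 4.85 in D5 libraries.

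The remaining members changed less than 2-fold. Tspan6 had 32.2, 31.3 and 30.6 CPM at D0 and 19.9, 19.3 and 18.7 CPM at D5, or 61.5% of the D0 level (adjusted p = 2.1e-13, edgeR). Tspan4, which is known from migrasomes, the vesicles left behind by migrating cells, went from 37.0 ± 2.10 to 44.7 ± 2.53 CPM (log2 fold change 0.27, adjusted p = 1.1e-05, edgeR), and turned to -0.41 without scaling and -0.32 with the spike-ins. Tspan31, first known from its amplification in sarcoma, had 85.7, 88.1 and 83.4 CPM at D0 and 85.4, 81.7 and 81.1 CPM at D5 (log2 fold change -0.05, 95% interval from -0.12 to 0.02, adjusted p = 0.20, edgeR), and was called lower with total counts at -0.14. Of its exonic length, 29.2% lies opposite Cdk4, which went from 352 ± 4.33 to 88.0 ± 1.93 CPM. The strand setting of the counting is not stated, so reads of the 2 genes may not be told apart there. Smaller overlaps of 13.4% with Chid1 for Tspan4 and 10.7% with Gm26728 for Cd9 apply likewise.

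The make-up of the family changed more than its sum. The 31 members summed to 2709 ± 82.6 CPM at D0 and to 2924 ± 25.5 CPM at D5, or 2933 ± 55.4 and 2804 ± 37.2 TPM. With total counts the sums were 2789 ± 72.8 and 2839 ± 19.7 CPM, and scaled to the spike-ins they were 3552 ± 229 and 2604 ± 1360. As a share of the summed TPM, Cd63 took 40.0% at D0 and 37.4% at D5, Cd81 took 13.4% and 13.6%, and Cd9 took 7.93% and 8.77%. Cd82 went from 12.7% to 4.44% and Cd151 from 6.18% to 4.15%. In their place stood Tspan14, from 2.47% to 4.96%, Tspan3, from 1.84% to 4.68%, Tspan9, from 1.77% to 3.62%, and Tspan12, from 0.980% to 2.77%.

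By TPM, the order in myoblasts was Cd63, Cd81, Cd82, Cd9, Cd151, Tspan31, Tspan14 and Tspan17, with no overlap between neighbours in this order. Next came Tspan4, Tspan3, Tspan6 and Tspan9, between 52.0 and 58.8 TPM, where each neighbouring pair overlapped. In myotubes the order was Cd63, Cd81 and Cd9, then Tspan14 and Tspan3, at 139 ± 3.67 and 131 ± 7.14 TPM, which overlapped. Cd82, Tspan31 and Cd151 followed between 116 and 124 TPM, with overlap between neighbours. Tspan8 stood near the detection limit in myoblasts and at rank 15 in myotubes, with 21.3 to 25.3 TPM, above Tspan15 and Tspan5. Tspan18 stood at rank 17 in myoblasts, with 8.11 ± 0.334 TPM, and among the members near the detection limit in myotubes, where it overlapped Prph2 and Cd37.

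**Figure D4:**
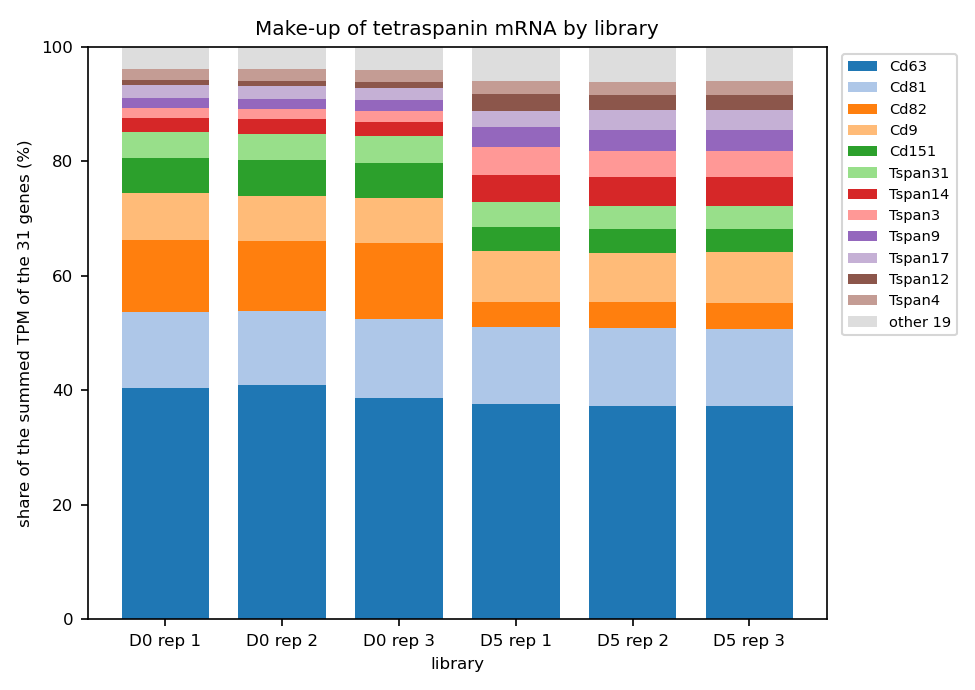
Share of each of 12 tetraspanins and of the other 19 together in the summed TPM of the family, in percent, with 1 stacked bar per library. The band of Cd63 stays near 40.0% and 37.4%, that of Cd82 narrows from 12.7% to 4.44%, and those of Tspan14, Tspan3, Tspan9 and Tspan12 widen at D5.

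Several members lie next to each other in the genome of GRCm38. Tspan18 and Cd82 are 84.605 kb apart with no protein-coding gene between them, and both fell. Tspan11 and Tspan9 are 7.418 kb apart and both rose, as did Tspan32 and Cd81, 33.094 kb apart, although the rise of Cd81 turns with the scaling. Cd151 and Tspan4, 3.766 kb apart with Polr2l between them, moved in opposite directions under TMM, with log2 fold changes of -0.48 and 0.27. Of all tested tetraspanins 69.2% were higher and 23.1% lower, so pairs that move alike are to be met without any link between neighbours. Whether neighbours change together was not tested. Beside Tspan18, Trp53i11 was also lower (1.68 ± 0.182 to 0.174 ± 0.0217 CPM, adjusted p = 4.9e-11, edgeR), while Prdm11 was higher at 0.95. Like Tspan18, Trp53i11 passed the filter only through its D0 libraries, so its call is not independent of it. Beside Tspan9, Tead4, a transcription factor of the TEAD family active in muscle, rose from 5.29 ± 0.217 to 107 ± 0.402 CPM, and Tulp3 was lower at -0.70.

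Genes known to act with tetraspanins were listed by their binding or shared process. Of 44 such partners, 34 were tested, of which 15 were higher and 17 were lower, with 42.2% and 40.8% of all genes as background, and their median log2 fold change was -0.08. Of the higher ones, Itgb4 and Rab27a passed the filter only through their D5 libraries, so their calls are not independent of it. With the spike-ins 5 partners were higher and 9 were lower. Of the immunoglobulin superfamily partners of CD9 and CD81, Ptgfrn had 91.2, 89.6 and 89.9 CPM at D0 and 422, 405 and 421 CPM at D5 (log2 fold change 2.21, SE 0.034, adjusted p = 3.9e-31, edgeR). Its TPM over the sum of Cd9 and Cd81 went from 0.0477 ± 0.000691 to 0.197 ± 0.00476. Igsf8, the other well known partner of this kind, was at 31.9 ± 0.604 and 33.8 ± 2.84 CPM (adjusted p = 0.15, edgeR).

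Among the 5 laminin-binding integrin genes, partners of Cd151, 3 were higher and 1 was lower, beside 42.2% and 40.8% of all genes. Itga7, the muscle laminin receptor chain, rose from 694 ± 14.5 to 1469 ± 25.0 CPM (log2 fold change 1.08, adjusted p = 1.8e-23, edgeR), while Itgb1 fell from 1679 ± 28.1 to 977 ± 28.6 CPM (log2 fold change -0.78, adjusted p = 1.4e-19, edgeR). Itgb4 had a log2 fold change of 2.69 from 0.338 ± 0.135 CPM, with 7, 16 and 18 counts at D0 and 41, 52 and 73 at D5. It also passed the filter only through its D5 libraries. The TPM of Itga7 over that of Cd151 went from 1.64 ± 0.0672 to 4.84 ± 0.154. With the spike-ins the call of Itga7 was lost and that of Itgb1 was kept.

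Fzd4, the norrin receptor that Tspan12 joins, went from 15.3 ± 0.938 to 12.7 ± 0.448 CPM (log2 fold change -0.27, adjusted p = 5.8e-04, edgeR), and its co-receptor gene Lrp5 from 79.8 ± 1.14 to 100.2 ± 3.94 CPM (log2 fold change 0.33, adjusted p = 2.1e-09, edgeR). With the spike-ins both calls were lost, and the log2 fold change of Lrp5 was -0.26. Tspan12 over Fzd4 in TPM went from 3.65 ± 0.268 to 13.2 ± 0.220. The gene of the ligand norrin, Ndp, was not tested.

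Of 9 tested genes of vesicle formation and release, 5 were higher and 4 were lower, where 82.9% of all genes passed the test, 42.2% higher and 40.8% lower. The syndecans, which bind syntenin in this process, split: Sdc2 rose from 137 ± 3.01 to 447 ± 5.01 CPM and Sdc3 fell from 276 ± 6.49 to 24.4 ± 1.71 CPM (log2 fold changes 1.71 and -3.50, adjusted p = 1.3e-28 and 2.2e-33, edgeR), and the call of Sdc2 was lost with the spike-ins. The secretory GTPase genes Rab27a and Rab27b were both higher, by 2.29 and 1.93 on the log2 scale. Rab27a had 8, 4 and 7 counts at D0 and 25, 14 and 20 at D5, with an SE of 0.36. It passed the filter only through its D5 libraries. Of the other surface and signaling partners, 2 were higher and 7 lower of 9 tested, against the same shares of all genes. Egfr rose from 3.09 ± 0.471 to 78.0 ± 0.643 CPM (log2 fold change 4.65, adjusted p = 5.1e-32, edgeR) and Cd44 fell from 1590 ± 14.9 to 170 ± 1.86 CPM (log2 fold change -3.23, adjusted p = 4.7e-35, edgeR). Met and Zdhhc2, a palmitoyltransferase of tetraspanins, both had log2 fold changes of -1.21, and Hbegf, the growth factor precursor that Cd9 binds, had -1.11. The 4 partners of the bladder and retinal members were not tested, with at most 13 counts in any library.

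**Figure D5:**
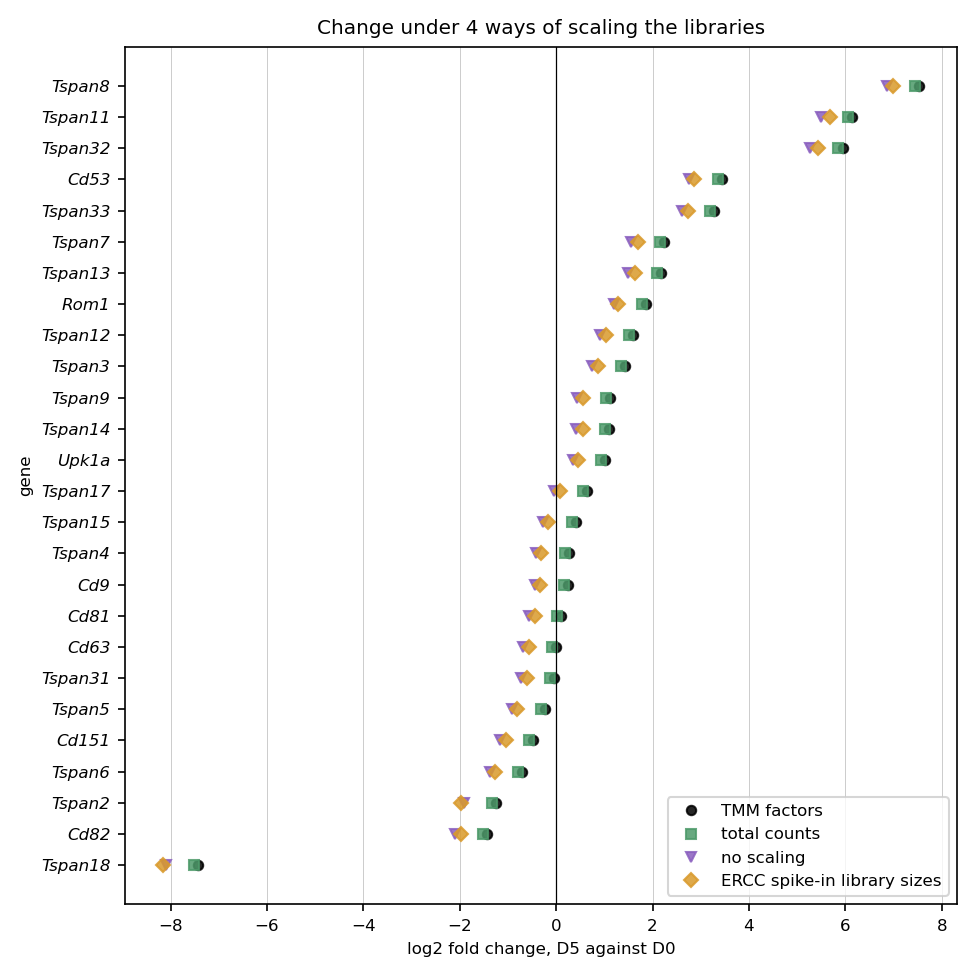
Log2 fold change, D5 over D0, of each tested tetraspanin with TMM, total counts, no scaling and ERCC spike-in library sizes. All values shift downward together without scaling and with the spike-ins, where Cd81, Cd9, Tspan15 and Tspan4 lie below 0, and Tspan18 and Tspan8 stay at the 2 ends.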

How the data were processed

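RNA-seq was performed on 3 D0 and 3 D5 C2C12 cultures. The authors aligned reads to GRCm38 and deposited raw counts per gene from featureCounts, without normalization. The labels name Tophat2 as the aligner and the paper's methods HISAT2; which was used is not settled, and the strand setting, read length and handling of multiply mapped reads are not given in the sources used here. Of the 54525 gene rows, 99.9321% matched the GENCODE annotation of GRCm38 used for positions and exonic length. Rows for 92 ERCC spike-ins, and an unnamed row that held the column total, entered neither library sizes nor tests.

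edgeR 4.0.16, run in R 4.3.3 on the deposited counts, gave TMM factors, CPM and, after filterByExpr, quasi-likelihood tests, and TPM used exonic length. The test was fitted without a replicate block, with Benjamini-Hochberg adjustment over the genes tested and a threshold of 0.05. Standard errors follow from each log2 fold change and its F statistic. Counting intervals are exact, at 95%. A floor of 3 counts per library was used where no library of a group had more. Since exact two-sided permutation of 3 against 3 libraries reaches no p below 0.1, only the model was used for single genes. Between replicates the chi-square, over its degrees of freedom, was 2.16 to 3.45, more than sampling noise gives, and each library counted as 1 sample. Scripts were tested on simulated data.

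All members were described, with values per library for those past the threshold and changed at least 2-fold; partners were named by the same rule, plus Adam10, Ptgfrn, Igsf8, Itgb1, Fzd4 and Lrp5. The members and lists, and the order of presentation, were chosen with earlier results of these data known. Alternatives were DESeq2 1.42.0, upper-quartile factors, total counts, no scaling, ERCC spike-in library sizes, no filter, a minimum of 10 counts per library, omission of each library and the replicate number as a block. Promoters came from RefSeq for GRCm38.p6. Protein sequences were not used here.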

Additional observations from a re-analysis of the deposited data

How the results depend on the processing

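With no scaling, 12 tetraspanins were higher and 12 lower, 8 partners were higher and the median of the tetraspanins was 0.15. With ERCC spike-in library sizes, 7 were higher and 4 lower, 5 partners were higher and 9 lower, the median was 0.27, 5560 genes in all passed the threshold, and the family sums were 3552 at D0 and 2604 at D5. With total counts the sum at D5 was 2839. Without a filter on low counts 30 tetraspanins were tested and their median was 1.01. Directions turned for Cd81 (-0.57 without scaling, -0.45 with the spike-ins), Cd9 (-0.44 and -0.33), Tspan15 (-0.27 and -0.17), Tspan4 (-0.41 and -0.32) and Tspan17 (-0.038 without scaling). Cd63, which has no call, turned to 0.00043 with DESeq2 and to 0.012 and 0.022 without D0 replicate 1 and without D0 replicate 2, in a range from -0.055 to 0.022 over single libraries left out. The spike-ins ended 9 calls in the same direction (Cd151, Rom1, Tspan3, Tspan5, Tspan9, Tspan12, Tspan14, Tspan17 and Upk1a), the call of Cd81 was also lost without a filter and with total counts, and Upk1a without scaling. Cd63 and Tspan31 became lower calls with total counts and without scaling, and Tspan31 also without a filter. Without scaling, the lower total counts of the D5 libraries enter every fold change. The cause of the other changes was not tested. DESeq2, upper-quartile factors and at least 10 counts in every library changed no other direction or call among the tetraspanins each tested. Leaving out each library in turn gave 18 higher and 6 lower throughout, 15 to 16 partners higher and 17 lower, 13151 to 13221 genes in all and medians from 0.74 to 0.89. With the replicate number as a block, 18 were higher and 6 lower, the median was 0.84 and no call changed. The deviations of same-numbered libraries correlated at 0.033, 0.064 and 0.028, all under 0.1. Each D0 library correlated best with the D5 library of its own number. Whether same-numbered samples share more than a number cannot be told from these values. Depth limits members with up to 3 counts per library, which could not be told from none.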
